A study of Homo sapiens with 14 samples.

Results

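The genes described here are the protein-coding genes of human chromosome 19 whose name is ZNF followed by a number. They were taken by name and chromosome from GENCODE release 44 on hg38, with no measured value, and number 249 of the 1476 protein-coding genes of chromosome 19 and 249 of the 20033 on chromosomes 1 to 22, X and Y. The comparison set is the other 1227 protein-coding genes of chromosome 19. Among the 249, 3 are read-through genes that join neighbouring genes.

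ZNF genes encode DNA-binding proteins built from tandem C2H2 zinc fingers, each of which can contact a few bases. Many also carry a KRAB domain, which recruits the corepressor TRIM28 (KAP1), and through it the histone methyltransferase SETDB1 and HP1 proteins, to the bound site. The family grew by tandem duplication on chromosome 19, and in pluripotent cells many of its members silence transposable elements. Of the 249 genes, 247 encode at least 1 finger pattern (median 12 per protein, highest 36), and 196 (78.7%) match a letter pattern of the KRAB A box, which misses divergent boxes. Of the other chromosome 19 genes, 24 (1.96%) match that pattern.

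The measurements are ChIP-seq peak lists from the established human embryonic stem cell line WIBR3, grown on mouse feeder cells either as primed cells in conventional medium or as naïve cells in 5i/L/A medium. The proteins precipitated were 3 subunits of BAF, a complex that moves and evicts nucleosomes, and the transcription factor SOX2. The subunits are BRG1 (SMARCA4) and BRM (SMARCA2), of which a BAF complex holds either one as its ATPase, and BAF155 (SMARCC1), part of its core. Each combination is represented by 1 list, because in each state both SOX2 libraries came with the same peak coordinates. The SOX2 libraries were read as paired ends and the BAF libraries as single ends, so folds are compared within a list, except where genes were picked to be named. A difference between naïve and primed cells is therefore a difference between 2 lists with no replicate error, and the intervals given are 95% Clopper-Pearson intervals that cover counting error alone.

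The lists held 57884 (naïve BRG1), 62338 (naïve BAF155), 17413 (naïve BRM), 1941 (naïve SOX2), 15611 (primed BRG1), 58352 (primed BAF155) and 9291 peaks (primed SOX2). Chromosome 19 took 6.74% to 8.47% of the peaks of the naïve BAF lists, against 3.10% and 3.53% in primed BRG1 and BAF155. The primed BRM list (168 peaks) had 0 peaks on chromosome 19 and is not used further. As a check on the labels, all 7 naïve marker genes, KLF17 and DPPA5 among them, had a naïve BAF155 promoter peak and 3 of 7 had a primed one, whereas all 7 primed markers had one in both states.

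A promoter peak is a peak that shares at least 1 base with the 1 kb on either side of any annotated transcript start of the gene, and a body peak lies in the gene outside those windows. Fold is the enrichment over the input library that the authors' peak caller gave each peak. A missing peak means no call at the authors' threshold, not absence of the protein. Windows of 63 of the 249 genes (25.3%) touch the window of another protein-coding gene, so that neighbours can share a peak and are not independent.

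The sequences that recur in the results lie at the transcript starts of ZNF genes with a primed SOX2 promoter peak. Each line gives 30 bases of hg38 on the strand of the gene, with the SOX core CTTTGT, the short motif that SOX proteins recognise, in capitals. The nearest annotated transcript start is within 4 bp of the middle of the core in every gene shown. ZNF714 is included because its 30 bases are identical to those of ZNF85 while it had no SOX2 peak.

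ZNF85 (chr19:20923241-20923270, plus strand): atgtggcggggcCTTTGTctctcgctgcag
ZNF714 (chr19:21082187-21082216, plus strand, no SOX2 peak): atgtggcggggcCTTTGTctctcgctgcag
ZNF430 (chr19:21020641-21020670, plus strand): gtttggcggggcCTTTGTccctcgctgtgg
ZNF43, upstream start (chr19:21852052-21852081, minus strand): ttttggcggggcCTTTGTctccagctcccg
ZNF724 (chr19:23250375-23250404, minus strand): atttggcggggcCTTTGTctctcgctgcag
ZNF91 (chr19:23395458-23395487, minus strand): atgtggctgggcCTTTGTctctcgctgccg
ZNF254 (chr19:24087177-24087206, plus strand): atatggcggggcCTTTGTctctcgctgtcg
ZNF763 (chr19:11965038-11965067, plus strand): tcctgtcctcacCTTTGTccttgcgcagcc
ZNF627 (chr19:11597467-11597496, plus strand): tccctacggagcCTTTGTttctggcgaccg

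At promoters, the ZNF genes carried BRG1 and BAF155 peaks about as often as their neighbours on the chromosome. A naïve BRG1 promoter peak was found at 175 of 249 ZNF genes (70.3%, interval 64.2 to 75.9) and at 883 of 1227 others (72.0%), where 71.7% of all 1476 had one. For naïve BAF155 the counts were 174 (69.9%) and 893 (72.8%), against 72.3% of all. In primed cells, BAF155 marked 161 ZNF promoters (64.7%) and 831 others (67.7%), and 67.2% of all. The intervals of the log2 ratio of ZNF to other genes include 0 in these 3 lists, at -0.16 to 0.09, -0.19 to 0.07 and -0.21 to 0.08. Against the genes of all chromosomes, primed BAF155 was slightly less frequent at ZNF promoters (log2 ratio -0.17, interval -0.31 to -0.039).

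BRM and primed BRG1 were less frequent at ZNF promoters than at the others. Naïve BRM, the ATPase that alternates with BRG1, had a promoter peak at 50 ZNF genes (20.1%, interval 15.3 to 25.6) and at 413 others (33.7%), against 31.4% of all genes. Primed BRG1 had one at 23 ZNF genes (9.24%, interval 5.95 to 13.5) and at 265 others (21.6%), against 19.5% of all. The log2 ratios were -0.75 (interval -1.12 to -0.37) and -1.23 (interval -1.81 to -0.64). For BRM the difference depended on the comparison set and on the peaks kept, with -0.17 (interval -0.53 to 0.19) against the genes of all chromosomes and -0.41 (interval -1.17 to 0.35) with peaks of -log10 q of 3 or more. Every one of the 50 ZNF genes with a naïve BRM promoter peak also had a naïve BRG1 promoter peak, as did 408 of the 413 others.

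**Figure D1:**
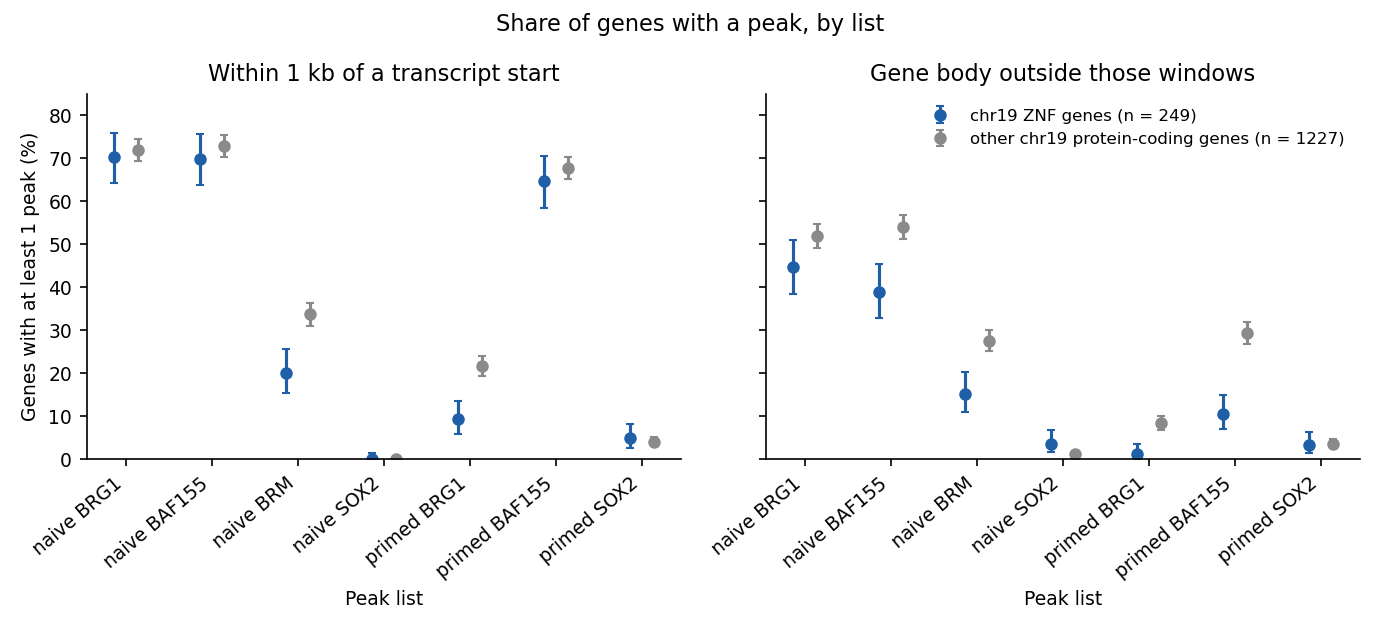
Share of genes with at least 1 peak (y axis, percent) in each of 7 peak lists (x axis), within 1 kb of a transcript start (left) and in the rest of the gene (right). Blue points are the 249 chromosome 19 ZNF genes, grey points the 1227 other protein-coding genes of the chromosome, and bars are 95% Clopper-Pearson intervals. At promoters the points of BRG1 and BAF155 in naïve cells and BAF155 in primed cells lie close together, and in gene bodies every blue BAF point lies below the grey one.

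The promoter peaks of ZNF genes were weaker. Over genes with a peak, the median of the highest promoter fold was 2.71 in ZNF genes and 3.01 in the others for naïve BRG1, 2.67 and 3.02 for naïve BAF155, and 3.00 and 3.24 for primed BAF155. The difference was small for primed BRG1, at 3.42 and 3.44. With only peaks of -log10 q of 3 or more, 45 ZNF genes (18.1%) kept a naïve BRG1 promoter peak against 375 others (30.6%), 46 (18.5%) against 454 (37.0%) a naïve BAF155 peak, and 34 (13.7%) against 350 (28.5%) a primed BAF155 peak. The near-equal shares of the full lists did not hold among the peaks with the lowest q-values.

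**Figure D2:**
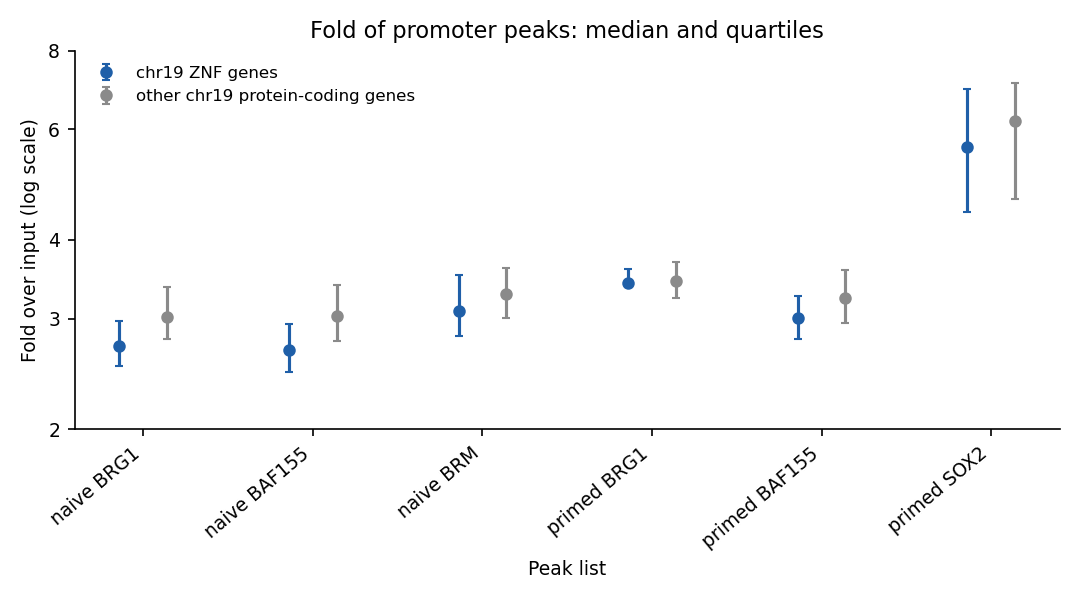
Fold over input (y axis, log scale) of the highest promoter peak of each gene that has one, in 6 peak lists (x axis; naïve SOX2 is left out because 0 ZNF genes had a promoter peak). Points are medians and bars run from the lower to the upper quartile, in blue for ZNF genes and grey for the others. The blue medians lie below the grey ones, clearly so for naïve BRG1 (2.71 and 3.01) and hardly at all for primed BRG1 (3.42 and 3.44), and the quartile ranges overlap in every list.

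ZNF promoters differ from those of the other genes in base composition. The median CpG observed over expected ratio of the 2 kb at the 5′ end was 0.58 in ZNF genes and 0.55 in the others, with a narrower spread in ZNF genes (quartiles 0.53 and 0.65, against 0.33 and 0.68), and the median GC content was 52.1% and 58.2%. Among genes with a ratio of 0.75 or more, naïve BAF155 marked 14 of 15 ZNF promoters (93.3%) and 166 of 175 others (94.9%). In the class from 0.6 to under 0.75 it marked 68 of 92 (73.9%, interval 63.7 to 82.5) and 290 of 332 (87.3%, interval 83.3 to 90.7), and primed BAF155 66 of 92 (71.7%) and 297 of 332 (89.5%). From 0.45 to under 0.6 the shares were 75 of 113 (66.4%) and 204 of 257 (79.4%) for naïve BAF155. Within these middle classes, which hold most ZNF genes, the ZNF share was the lower one. Below 0.3, a class with only 9 ZNF genes, it was the higher one, at 5 of 9 (55.6%, interval 21.2 to 86.3) against 90 of 244 (36.9%) for naïve BAF155 and 6 of 9 (66.7%, interval 29.9 to 92.5) against 58 of 244 (23.8%, interval 18.6 to 29.6) for primed BAF155.

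The near-equal promoter shares also combined opposite differences by recurring sequence, measured as the share of 32-mers of the 2 kb at the 5′ end that occur more than once in hg38. Where it was 10% or more, naïve BAF155 marked 103 of 132 ZNF promoters (78.0%, interval 70.0 to 84.8) and 338 of 529 others (63.9%, interval 59.6 to 68.0), naïve BRG1 76.5% and 64.1%, and primed BAF155 64.4% and 55.6%. Where it was under 10%, naïve BAF155 marked 71 of 117 ZNF promoters (60.7%) and 555 of 698 others (79.5%), naïve BRG1 63.2% and 77.9%, and primed BAF155 65.0% and 76.9%. Primed SOX2 followed the same order, with 10 of 132 (7.58%) against 17 of 529 (3.21%) in the first class and 2 of 117 (1.71%) against 32 of 698 (4.58%) in the second.

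Short motifs of general promoter factors were unevenly spread as well. RefSeq promoter sequences (GRCh38.p14, 250 bases before to 50 after the start) matched 218 of the 249 ZNF genes and 949 of the 1227 others, and both strands were searched. The ETS core CCGGAAG was in 99 ZNF promoters (45.4%), 123 others (13.0%) and 14.4% of 15345 promoters of all chromosomes. The CCAAT box was in 118 (54.1%), 356 (37.5%) and 36.6%, and the GC box GGGCGG in 148 (67.9%), 631 (66.5%) and 59.2%. A match to these letters is a description of the sequence and not a bound site.

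In gene bodies the BAF lists differed more. ZNF genes were longer (median 26.1 kb against 13.8 kb), yet fewer of them had a body peak in each of the 5 BAF lists. Naïve BRG1 had a body peak in 111 ZNF genes (44.6%) and 636 others (51.8%), against 50.6% of all 1476. Naïve BAF155 had one in 97 (39.0%) and 662 (54.0%), against 51.4%, and naïve BRM in 38 (15.3%) and 338 (27.5%), against 25.5%.

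In primed cells the gap was wider. Body peaks of primed BAF155 were found in 26 ZNF genes (10.4%, interval 6.94 to 14.9) and 359 others (29.3%), against 26.1% of all genes, and those of primed BRG1 in 3 ZNF genes (1.20%) and 103 others (8.39%), against 7.18%. Per 100 kb of body, ZNF genes held 3.41 naïve BRG1 peaks and the others 6.87, and 0.61 and 2.91 for primed BAF155. Among genes of 20 to 40 kb, 41 of 102 ZNF genes (40.2%) and 193 of 260 others (74.2%) had a naïve BAF155 body peak. The difference was thus also found between genes of like length. In the 3 naïve lists it depended on the comparison set. Over the genes of all chromosomes the log2 ratio was 0.091 in place of -0.22 for naïve BRG1 (intervals -0.11 to 0.29 and -0.43 to -0.0031), -0.20 in place of -0.47 for naïve BAF155 (intervals -0.42 to 0.028 and -0.71 to -0.23) and -0.38 in place of -0.85 for naïve BRM (intervals -0.80 to 0.048 and -1.29 to -0.41).

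The coding end of a ZNF gene is one long exon that holds the fingers, and in other cell types it often carries H3K9me3 and ZNF274. The last coding exon measured 1.52 kb at the median in ZNF genes and 0.16 kb in the others, and made up 4.78% and 1.34% of gene length. Of 242 naïve BRG1 body peaks in ZNF genes, 15 (6.20%, interval 3.51 to 10.0) touched it, as did 10 of 206 naïve BAF155 peaks (4.85%) and 3 of 43 primed BAF155 peaks (6.98%). In the other genes, with the shorter exon, the shares were 126 of 1594 (7.91%, interval 6.63 to 9.34), 117 of 1682 (6.96%) and 58 of 675 (8.59%). ZNF565, ZNF628 and ZNF575, chosen here after their values were seen, had such peaks in both states.

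The naïve BRG1 and BAF155 peaks of ZNF genes held about as much recurring sequence as the 5′ ends of these genes, and the naïve BRM peaks less. At the median, 9.45% of the 32-mers of a naïve BRG1 promoter or body peak of ZNF genes occur more than once in hg38. The share was 10.0% for naïve BAF155, 2.17% for naïve BRM and 0 for primed BAF155. The peaks of promoters and bodies are pooled here, and the median over genes was 10.5% in the 2 kb at the 5′ end and 20.3% in the body. Reads that match several places were placed by the default setting of the aligner, which can lower or scatter the signal in such sequence, and the part of this in the calls was not tested.

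In the full lists, the split between states went one way for BRG1 and both ways for BAF155. BRG1 promoter peaks were in naïve cells only at 154 ZNF genes (61.8%; 52.8% of all 1476 genes), in primed cells only at 2 (0.803%; 0.678% of all) and in both at 21. The share in both was 8.43% (interval 5.30 to 12.6), against 20.95% of the other 1227 genes (interval 18.7 to 23.3). The primed BRG1 list is the shorter one, and with both lists held to 15611 peaks the counts were 34, 15 and 8. Of the other 1227 genes, 210, 108 and 157 were then naïve only, primed only and in both. At that length the BRG1 split went both ways, and the naïve-only share of ZNF genes was not above that of the others. BAF155, with lists of like length, was naïve only at 44 ZNF genes (17.7%, interval 13.1 to 23; 12% of all), primed only at 31 (12.4%, interval 8.62 to 17.2; 6.91% of all) and in both at 130 (52.2%). Of the other 1227 genes, 133 (10.8%) were naïve only, 71 (5.79%) primed only and 760 (61.9%) in both, and the intervals of both single-state shares (9.16 to 12.7 and 4.55 to 7.24) lie below those of the ZNF genes.

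Taking BRG1 and BAF155 together, 142 ZNF genes (57.0%) had a BAF promoter peak in both states, 58 (23.3%; 15.3% of all genes) in naïve cells only, 19 (7.63%; 4.0% of all) in primed cells only and 30 (12%) in neither. Of the other 1227 genes, 64.55% had one in both states and 18.5% in neither. A naïve BRM promoter peak was found at 41 of the 142 genes bound in both states (28.9%, interval 21.6 to 37.1) and at 9 of the 58 naïve-only genes (15.5%, interval 7.35 to 27.4), and these intervals overlap. Among the other genes BRM marked 377 of 792 bound in both states (47.6%) and 35 of 168 naïve-only genes (20.8%).

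The naïve-only genes of highest fold were ZNF414 (naïve BAF155 3.64, BRM 4.62), ZNF557 (3.63, with a window that touches MBD3L3), ZNF177 (3.28), ZNF444 (naïve BRG1 3.22) and ZNF528 (naïve BAF155 3.21, BRM 3.77). The primed-only genes of highest fold were ZNF780A (primed BAF155 3.5), ZNF507 (primed BRG1 3.29, BAF155 2.80), ZNF264 (3.27), ZNF550 (3.03) and ZNF175 (3.03). The genes were ranked by the higher of their BRG1 and BAF155 folds, which come from different lists. None of the folds given here reached the upper range of the lists, whose highest values were 11.5 for naïve and 18.6 for primed BAF155. These classes rest on promoter peaks alone. In the body, ZNF444 had a primed BAF155 peak (3.49) and ZNF507 a naïve BAF155 peak (2.765).

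BAF155 differed between states in opposite directions in different gene clusters. Joining ZNF genes less than 500 kb apart gave 10 clusters of at least 5 genes, with 14 genes outside them. Cluster 4, from ZNF101 to ZNF254 (chr19:19668796-24129968), had a naïve promoter peak at 24 of 37 genes (64.9%, interval 47.5 to 79.8) and a primed one at 12 (32.4%, interval 18 to 49.8). Cluster 10, from ZNF264 to ZNF446 (chr19:57191500-58481230), had the opposite order, with 20 of 43 (46.5%, interval 31.2 to 62.3) naïve and 30 (69.8%, interval 53.9 to 82.8) primed.

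In cluster 4, 17 genes were naïve only and 5 primed only. In cluster 10, 3 were naïve only and 13 primed only. The 23 other protein-coding genes inside the span of cluster 10 had 12 naïve and 12 primed promoter peaks (52.2% each), and cluster 4 holds only 3 other genes. The intervals of the naïve and primed shares overlap slightly in both clusters, and the clusters were compared after their values were seen. The clusters also differ in recurring 32-mers in the 2 kb at the 5′ end, with medians of 21.7% in cluster 4 and 6.40% in cluster 10. The part of this in the calls was not tested.

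Cluster 2 (ZNF414 to ZNF846) also had more naïve than primed peaks, at 8 of 14 genes (57.1%, interval 28.9 to 82.3) and 4 (28.6%, interval 8.39 to 58.1), with 5 naïve only and 1 primed only. Cluster 3 (ZNF653 to ZNF791) had BAF155 at 26 of 26 genes in naïve and 25 in primed cells, and cluster 8 (ZNF175 to ZNF331) at 36 and 31 of 40 genes. Cluster 7 (ZNF575 to ZNF180) had fewer, with 9 and 12 of 23 (39.1% and 52.2%). Of the 21 ZNF genes with no peak of any list in promoter or body (8.43%; 11.4% of the others), 9 lie in cluster 10, 6 in cluster 7 and 4 in cluster 4. The 5 longest of them are ZNF431, ZNF229, ZNF493, ZNF253 and ZNF723.

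**Figure D3:**
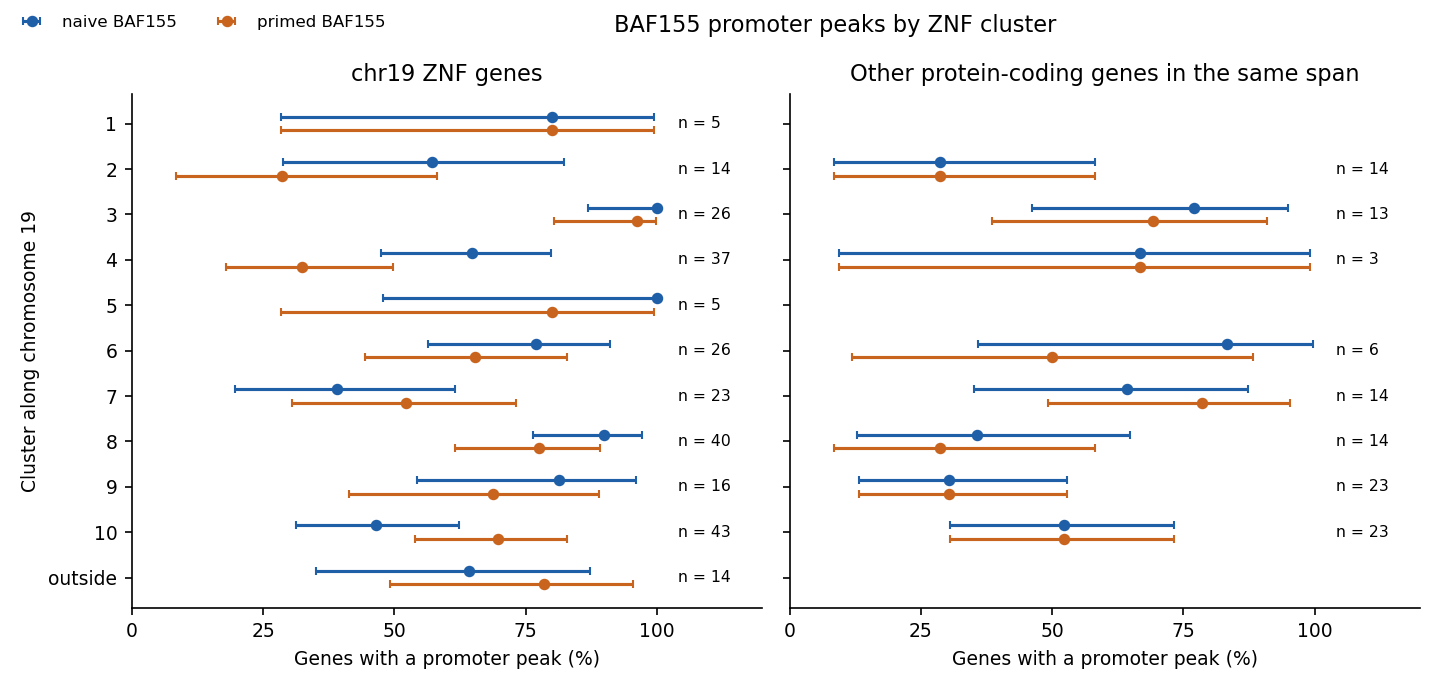
Share of genes with a BAF155 promoter peak (x axis, percent) in naïve (blue) and primed cells (orange), for each cluster of ZNF genes in order along chromosome 19 and for ZNF genes outside clusters (y axis). The left panel shows the ZNF genes and the right panel the other protein-coding genes in the same span, with 95% Clopper-Pearson intervals and the number of genes beside each row. In cluster 4 naïve (64.9%) lies above primed (32.4%) and in cluster 10 primed (69.8%) lies above naïve (46.5%), while the other genes of cluster 10 are at 52.2% in both.

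SOX2 promoter peaks at ZNF genes were found in the primed list only, at few genes and close to the transcript start. In naïve cells 0 of 249 ZNF promoters had a SOX2 peak, which allows a share of up to 1.20% (3 counts of the total; the upper Clopper-Pearson bound is 1.47%), against 2 of 1227 others and 0.136% of all. In primed cells 12 ZNF genes (4.82%, interval 2.52 to 8.27) and 49 others (3.99%) had one, against 4.13% of all, a ratio whose interval includes 0 on the log2 scale (-0.62 to 1.16). The naïve list is shorter, and with both lists held to the 1940 peaks of lowest q-value the primed count was 0 as well.

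Of the 12 genes, 7 lie in cluster 4. ZNF254 had the highest fold (8.09), followed by ZNF763 (7.88), ZNF724 (6.98) and ZNF91 (6.94). ZNF43 had 2 peaks (6.17 and 5.12), at separate transcript starts. ZNF814 (5.78), ZNF627 (5.48), ZNF428 (4.57), ZNF85 (4.48), ZNF430 (4.27), ZNF132 (4.27) and ZNF738 (4.26) complete the set. In cluster 4, 7 of 37 genes (18.9%) thus had a SOX2 promoter peak, and in the remaining ZNF genes 5 of 212.

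The midpoints of these peaks sat on the transcript start. Of 13 gene-peak pairs in ZNF genes, 11 had a midpoint within 50 bp of the nearest start, a limit set after the values were seen, and the median distance was -14.5 bp. In the other genes 3 of 50 pairs lay within 50 bp and the median was -140.5 bp. ZNF428 (-366.5 bp) and ZNF814 (1125 bp) were the exceptions among ZNF genes. Of the 13 peaks, 11 overlapped a primed BAF155 peak, 9 a naïve BAF155 peak and 2 a primed BRG1 peak. Of the 43 such peaks of the other genes, 38, 24 and 12 did.

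**Figure D4:**
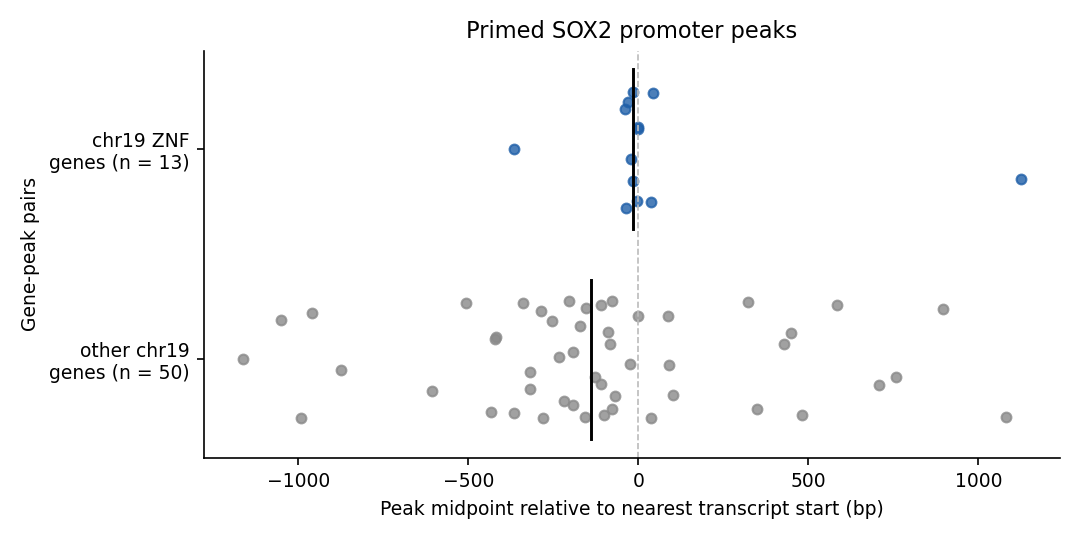
Midpoint of each primed SOX2 promoter peak relative to the nearest annotated transcript start (x axis, bp; negative is upstream) for 13 gene-peak pairs of ZNF genes (blue) and 50 of other chromosome 19 genes (grey). Vertical position within a row only separates the points, and black bars mark the medians (-14.5 bp and -140.5 bp). The blue points gather at the start apart from ZNF428 and ZNF814, and the grey points are spread over the window.

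The sequence at those starts is shared more widely than the peaks. The 9 letters GCCTTTGTC, read from the sequences printed above and so chosen after the peaks were seen, lie within 250 bases before to 50 after a transcript start in 22 ZNF genes (8.84%) and 24 others (1.96%). In RefSeq promoters they were in 17 of 218 ZNF genes (7.80%) and 0.424% of all promoters. In cluster 4, 16 of 37 genes hold them, of which 6 (37.5%, interval 15.2 to 64.6) had a primed SOX2 peak, against 1 of the 21 that do not, ZNF738. The 10 others with the letters, ZNF431, ZNF714 and ZNF726 among them, had no SOX2 peak. Outside cluster 4, 6 ZNF genes hold the letters and 0 of them had a peak. Of the 24 other genes with the letters, 3 (12.5%, interval 2.66 to 32.4) had a primed SOX2 promoter peak, against 46 of 1203 without them (3.82%).

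The shorter core CTTTGT alone was common. It was near a start of 122 ZNF genes (49.0%), and 10 of these had a primed SOX2 peak (8.20%) against 2 of 127 without it (1.57%). A core near a start need not lie under the peak of that gene. Outside cluster 4 the shares were 3 of 91 (3.30%, interval 0.685 to 9.33) and 2 of 121 (1.65%). In the other genes the core was near a start of 458 of 1227 (37.3%), with a peak at 4.15% of these and at 3.90% of those without it. Among all 9290 primed SOX2 peaks, 51.3% hold the core, against 23.5% of windows of the same length 2 kb to either side. The RefSeq promoters of the cluster 4 genes with a peak that have one in the table (6) were 80.1% identical to each other at the median over 15 pairs, and those of 23 cluster 4 genes without a peak 78.2% over 253 pairs, and the ranges overlap (76.9% to 87.0% and 51.8% to 91.0%). Near-identical promoters can exchange reads in mapping. In the 2 kb at the 5′ end, 17.7% of the 32-mers of ZNF85 and 16.4% of those of ZNF714 occur more than once in hg38, and the part of this in the calls was not tested.

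The primed SOX2 promoter peaks of ZNF132, ZNF814 and ZNF428 hold no CTTTGT. The midpoint of the ZNF132 peak was -30.5 bp from the nearest start, so a peak at the start was also found without the core. ZNF428 had another sequence under its primed SOX2 peak, with the octamer ATTTGCAT, the motif of POU factors such as OCT4, in 2 copies. It holds no CTTTGT and 1 copy of CATTGT, a variant of the SOX core, on the other strand. The peak (chr19:43619887-43620104, plus strand, capitals mark the octamer) lies upstream of the gene:

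ZNF428: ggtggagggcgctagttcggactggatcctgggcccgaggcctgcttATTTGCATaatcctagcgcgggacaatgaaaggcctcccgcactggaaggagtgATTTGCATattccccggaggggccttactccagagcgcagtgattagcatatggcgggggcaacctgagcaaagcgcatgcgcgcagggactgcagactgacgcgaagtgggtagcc

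The octamer was in 11.2% of all primed SOX2 peaks and 2.85% of windows 2 kb away, and CATTGT in 34.5% and 17.2%. ZNF428 also carried peaks of naïve BRG1 (3.41), BAF155 (3.43), BRM (3.57) and primed BAF155 (3.17) at its promoter.

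In naïve cells the SOX2 peaks of ZNF genes lay in gene bodies. Peaks lay in the body of 9 ZNF genes (3.61%, interval 1.67 to 6.75) and 15 others (1.22%, interval 0.69 to 2.01), against 1.63% of all 1476 genes, a log2 ratio of 1.56 (interval 0.39 to 2.74). Against the genes of all chromosomes the log2 ratio was close to 0 (-0.05, interval -0.98 to 0.89), and among genes of 10 to 50 kb it was 0.34 (interval -1.29 to 1.98). There were 9 distinct peaks, 1 of them shared by the overlapping genes ZNF565 and ZNF146. The genes, named after their values were seen apart from ZNF586, are ZNF586 (fold 8.20), ZNF600 (7.90), ZNF383 (6.93), ZNF569 (6.59), ZNF578 with 2 peaks (6.32 and 5.37), ZNF83 (6.16), ZNF793 (5.70), and ZNF565 and ZNF146 (5.37).

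All 9 peaks overlapped a naïve BRG1 peak, 8 a naïve BAF155 peak and 4 a naïve BRM peak. In primed cells 1 overlapped a BAF155 peak and 0 a SOX2 peak. In the other genes, 14 of 14 naïve SOX2 body peaks overlapped naïve BRG1, and 6 overlapped primed BAF155. Cluster 6 (chr19:36182276-37817300) holds 5 of the 9 genes. Of the 9 peaks, 5 consist of more than 50% recurring 32-mers, with a median of 54.5%. The median was 9.45% for naïve BRG1 peaks in ZNF genes, with promoters and bodies pooled, and 20.3% for the bodies of ZNF genes themselves.

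Some of these peaks were alike in sequence. The peak of ZNF565 and ZNF146 was 94.2% identical to 1 peak of ZNF578 over 189 aligned positions and 88.6% identical to that of ZNF793 over 202. The names of the repeats were not looked up, since no repeat annotation was used here.

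The peak of ZNF383 had 0 recurring 32-mers. It holds the letters GCATNACAA, the joint part of the OCT4-SOX2 composite element, overlapping a SOX core (capitals):

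ZNF383 (chr19:37241607-37241827, plus strand): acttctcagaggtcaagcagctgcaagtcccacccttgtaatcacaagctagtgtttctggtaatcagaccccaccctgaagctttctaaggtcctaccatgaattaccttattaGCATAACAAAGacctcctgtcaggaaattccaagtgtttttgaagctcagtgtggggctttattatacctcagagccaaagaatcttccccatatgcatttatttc

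These letters were in 10.9% of all 1940 naïve SOX2 peaks and in 0.773% of windows 2 kb away, and in 1 of the 9 peaks in ZNF gene bodies.

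In primed cells, SOX2 body peaks were in 8 ZNF genes (3.21%) and 43 others (3.5%), against 3.46% of all. Against the genes of all chromosomes, of which 12.4% had one, the log2 ratio was -1.95 (interval -2.93 to -0.96) in place of -0.13 (interval -1.20 to 0.95). The highest was in an intron of ZNF611 (chr19:52716330-52716929, fold 12.8, rank 850 of 9290), where primed BAF155 (4.6) and primed BRG1 (3.59) also peaked. Naïve BRG1 had a peak there too, at a fold of 2.83, and naïve SOX2 had none.

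Genes with described targets among transposable elements or a described role in development were taken from a fixed list of 11. All 11 had naïve BRG1 and naïve BAF155 promoter peaks, 7 a primed BAF155 peak, 4 a naïve BRM peak and 1 a primed BRG1 peak. Over all 1476 genes of the chromosome the shares were 71.7%, 72.3%, 67.2%, 31.4% and 19.5% in that order, so that 7 and 4 of 11 are near the background. ZNF91, which represses SVA elements, had naïve BRG1 (2.36) and BAF155 (2.64) peaks and no primed BAF peak, and its primed promoter peak was that of SOX2. ZNF93, which represses LINE elements, was likewise naïve only (BRG1 2.22, BAF155 2.4). ZNF274, a KRAB protein that recruits SETDB1 to ZNF genes themselves, was naïve only as well (2.93 and 2.76).

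ZNF534, described as a binder of HERVH elements, was the fourth naïve-only gene. Beside promoter peaks of naïve BRG1 (3.15), BAF155 (2.4) and BRM (3.40), it had the naïve BRG1 peak of highest fold of all ZNF genes, in an annotated exon near its 3′ end (chr19:52451248-52451745, fold 6.12, rank 184 of 57884). Naïve BAF155 (5.48) and naïve BRM (5.29) peaked at the same place, each with the highest fold of its list among body peaks of ZNF genes, and no primed list had a peak in the gene.

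The other 7 genes of the list had BAF155 peaks in both states. ZNF808, which binds MER elements and is needed for development of the pancreas, had naïve BRG1 (3.42), BAF155 (3.49), BRM (3.67) and primed BAF155 (3.5) peaks. ZNF611 was one of the few with primed BRG1 (3.37), beside naïve BRG1 (3.39), BAF155 (3.25), BRM (3.31) and primed BAF155 (3.90). ZNF765 had naïve BRG1 (3.40), BAF155 (2.95), BRM (3.94) and primed BAF155 (2.93). ZNF331, an imprinted gene, had naïve BRG1 (2.60), BAF155 (2.82) and primed BAF155 (3.6). ZNF433 (primed BAF155 3.51), ZNF649 (2.93) and ZNF296 (3.29), the last without a KRAB match, had naïve BRG1 and BAF155 folds between 2.56 and 3.06.

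**Figure D5:**
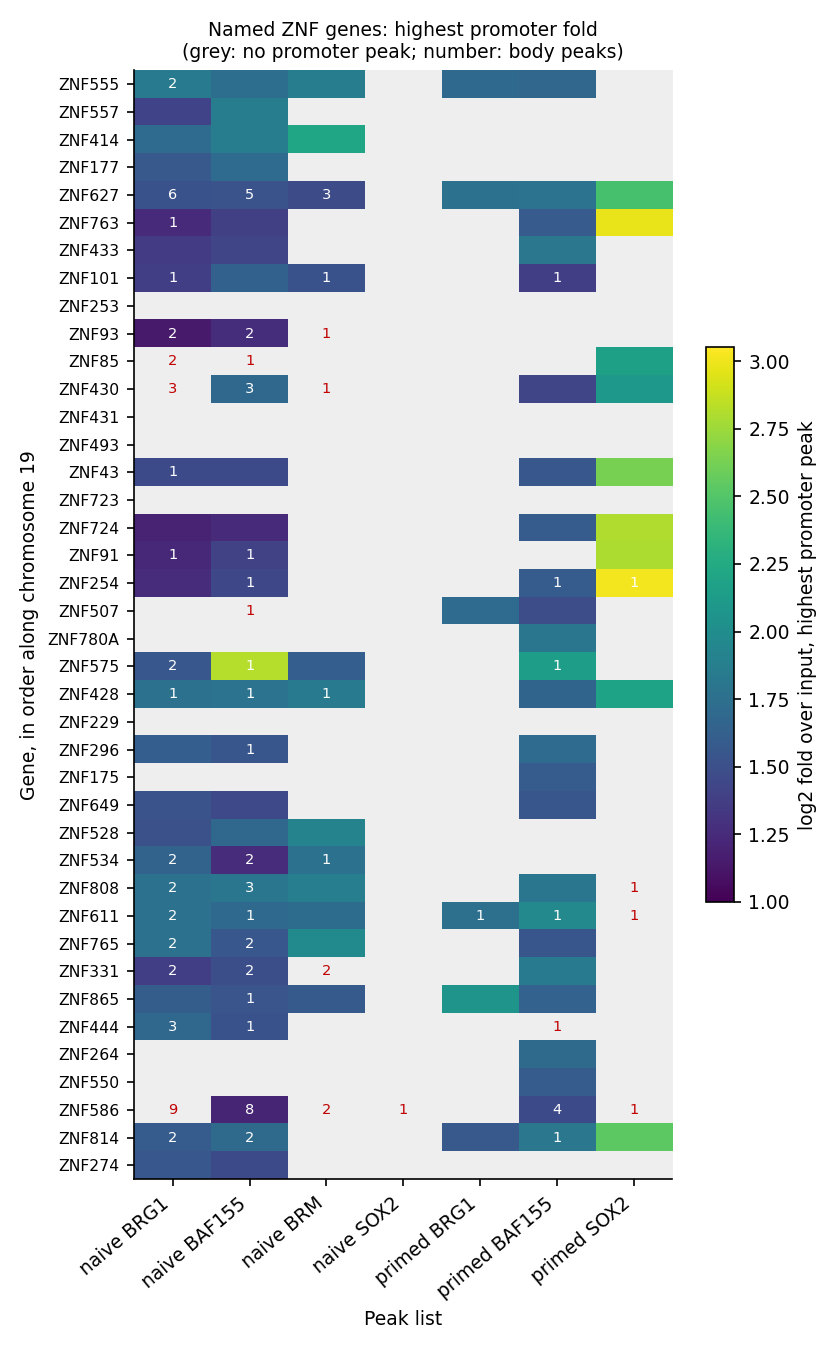
Highest promoter fold (colour, log2 scale) of 40 named ZNF genes (rows, in order along chromosome 19) in 7 peak lists (columns). Grey cells have no promoter peak and a number gives the count of body peaks. Naïve SOX2 has no coloured cell, primed BRG1 has 6, and ZNF431, ZNF253, ZNF493, ZNF723 and ZNF229 are grey throughout.

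ZNF627, whose window touches that of ELOF1, had a promoter peak in 6 of the 7 lists, and 11 ZNF genes had one in 5, among them ZNF555, ZNF611, ZNF428 and ZNF814. The midpoints of the ZNF627 promoter peaks lie 38070 to 38346 bp from its 5′ end, near another annotated start. For the others of chromosome 19 the shares with 5 or 6 lists were 13.1% and 1.3%, against 4.42% and 0.402% of ZNF genes, and the most common number was 3 in ZNF genes (72 genes) and 4 in the others (299 genes). ZNF575 had the highest naïve BAF155 promoter fold of the group (7.08, in a window that touches ETHE1), ZNF865 the highest primed BRG1 fold (4.18) and ZNF101 the highest primed BAF155 fold, in an intron (5.17).

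Genes of the KRAB zinc finger pathway were a fixed list of 15 on several chromosomes, with the zinc finger genes ZFP57 and ZNF445 among them. All 15 had a naïve BRG1 promoter peak, 13 a naïve and 13 a primed BAF155 peak, 9 a primed BRG1 peak, 4 a naïve BRM peak and 1 a primed SOX2 peak. Among the 19784 protein-coding genes of all chromosomes other than the ZNF genes, the shares were 66.8% for naïve BRG1, 67.0% and 72.8% for naïve and primed BAF155, 34.1% for primed BRG1, 22.6% for naïve BRM and 5.63% for primed SOX2. TRIM28, the corepressor itself, had naïve BRG1 (3.12), naïve BAF155 (3.21), primed BRG1 (3.15) and primed BAF155 (2.95). SETDB1 had naïve BRG1 (2.58) and BAF155 (2.49) and primed BAF155 (2.94). ATF7IP, a partner of SETDB1, was the one with a SOX2 promoter peak (4.63). ZFP57, a KRAB protein that guards imprints, had naïve BRG1 (2.72) and BAF155 (2.63) peaks and no primed peak.

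Zinc finger genes of chromosome 19 with other names (17, of the ZFP, ZSCAN, ZIM, ZIK and MZF families and PEG3) are given for comparison. Of the 17, 13 had a naïve BRG1 promoter peak (76.5%), 12 naïve BAF155 (70.6%), 10 primed BAF155 (58.8%), 2 naïve BRM (11.8%) and 1 primed BRG1 (5.88%). Primed SOX2 had a promoter peak at 2 of them (11.8%, interval 1.46 to 36.4), ZIK1 (6.04) and ZSCAN18 (6.56). Naïve SOX2 had a body peak in 1, ZFP30 (5.58). With 17 genes the intervals are wide (50.1% to 93.2% for naïve BRG1). The imprinted genes PEG3 (naïve BRG1 3.25, BAF155 3.47) and ZIM2, which share their start, were naïve only.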

How the data were processed

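Chromatin immunoprecipitation sequencing of 14 samples (10 immunoprecipitations and 4 inputs) was performed by the authors in WIBR3 cells. Per the labels and the methods, reads were aligned to hg38 with Bowtie2 2.3.4, handled with SAMtools 0.1.19, and MACS2 called the peaks with the input as control, broad for BRG1, BAF155 and BRM and narrow for SOX2. The deposited lists give the position of each peak, a score, the fold over input (a ratio) and the -log10 p-value and -log10 q-value of the caller. They give no read counts. By the authors' quality metrics, primed BRG1 had the most uniquely mapped non-redundant reads of the BAF libraries listed there, and naïve BRM the fewest. The primed BRM list and the second SOX2 list of each state hold positions only, and the SOX2 lists of a state have identical coordinates, so 7 lists were used. The score was not analysed.

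Peaks were assigned to protein-coding genes of GENCODE release 44 by an overlap of at least 1 bp, to promoter windows of 1 kb on either side of each transcript start and to the remaining body. Shares carry 95% Clopper-Pearson intervals and ratios of shares the interval of Katz on the log2 scale. Neighbouring genes are not independent and no list has a replicate, so no p-value is given. ZNF genes less than 500 kb apart were joined into clusters of at least 5. Sequences were read from hg38 and from RefSeq promoters, 32-mers were counted over the genome, and peak sequences were aligned with Biopython 1.88. Assignment was tested on simulated peaks. Python 3.11.15, numpy 2.4.6, pandas 2.3.3, scipy 1.17.1, pysam 0.24.0 and matplotlib 3.10.9 were used.

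The members, lists and clusters were chosen with earlier results of these data known. Named genes were a fixed list of genes with described roles, the 5 with promoter peaks in most lists, the 5 of highest fold in naïve cells only and in primed cells only, up to 10 with a SOX2 promoter peak, the peak of highest fold in each list, the 5 longest without a peak, and fixed lists of KRAB partners and other zinc finger genes. ZNF132, ZNF738, ZNF714, ZNF726, ZNF628 and the genes with naïve SOX2 body peaks other than ZNF586 were named after their values were seen. Alternatives were peak midpoints, the gene's 5′ end alone, stricter thresholds, unshared windows, classes of CpG content, recurring sequence and length, all chromosomes as comparison, and lists of equal length.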

Additional observations from a re-analysis of the deposited data

How the results depend on the processing

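Values are log2 ratios of the share in ZNF genes over that in the other genes unless stated. Of 109 alternative values, 70 stayed within the interval of the reported value and the rest left it. Among the alternatives of values whose interval excludes 0, 13 had an interval that includes 0. Among those of values whose interval includes 0, 14 had an interval that excludes 0. The sign changed in 13 of the 109, in 11 of them for a reported value whose interval includes 0, and in 0 of those 11 did the interval of the alternative exclude 0. The other 2 were body shares compared with the genes of all chromosomes, 0.091 in place of -0.22 for naïve BRG1 and -0.046 in place of 1.56 for naïve SOX2. The same comparison gave body values of -0.20 (naïve BAF155), -0.38 (naïve BRM) and -1.95 (primed SOX2), and promoter values of -0.17 (naïve BRM, interval -0.53 to 0.19) and -1.88 (primed BRG1).

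With peaks of fold 4 or more the promoter values were -3.48 (naïve BRG1), -1.56 (naïve BAF155), -2.25 (naïve BRM), -2.83 (primed BRG1) and -1.99 (primed BAF155), and the body values -2.30, -2.54 and -3.93 for the 3 naïve BAF lists in that order, on counts of 1 to 5 ZNF genes. With -log10 q of 3 or more they were -0.76, -1.0, -3.22 and -1.06 for promoters of naïve BRG1, naïve BAF155, primed BRG1 and primed BAF155, and -0.60, -0.74 and -1.74 for the bodies. The primed BRG1 value rests on 1 ZNF gene against 46 others (interval -6.07 to -0.37). Among genes with a CpG ratio of 0.6 or more the promoter values were -0.23 (naïve BRG1), -0.23 (naïve BAF155), -0.30 (primed BAF155) and -0.63 (primed SOX2, 0.27 as reported), and among genes with under 10% recurring 32-mers -0.30, -0.39, -0.24 and -1.42, with the opposite order in the genes with 10% or more. Among genes 10 to 50 kb long the body values were -0.61, -0.95, -1.52 and 0.34 for the naïve lists of BRG1, BAF155, BRM and SOX2. With promoter windows kept in the body they were -0.18 (naïve BAF155) and -0.15 (primed BAF155). The cause of these shifts was not tested.

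The log2 ratio of naïve to primed promoter shares of ZNF genes was 2.93 for BRG1 as reported, 0.87 with lists of equal length and 0.0 with fold 4 or more, and -0.32 for BAF155 with fold 4 or more. For SOX2, lists of equal length left 0 ZNF genes in both states and gave no ratio. No paired analysis was possible because the SOX2 lists 1 and 2 of each state hold the same coordinates, so leaving out either list changes nothing either. The lists hold no read counts, and the depth that the authors report was not set against any value. With 1 list per group, the spread between replicates could not be set against any value.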
